A study of Junonia coenia with 24 samples.

Results

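A stretch of 450 kb on contig 000025F of the buckeye butterfly Junonia coenia is described here, in which open chromatin lay higher in hindwings than in forewings over much of its length. Its members are the open-chromatin intervals of 2 deposited count tables, 1 for each wing, that lie between positions 800001 and 1250000 of the contig. They number 1307 of 989233 intervals in both tables, of which 677 come from the 500558 forewing intervals and 630 from the 488675 hindwing intervals. The stretch was chosen because earlier work on these counts had shown a hindwing excess there. Differences between the wings are therefore descriptions, given without p-values and with 1 count of pairs past a threshold that is read as no support, and tests are given for changes between stages within a wing.

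Forewing and hindwing of a butterfly grow from separate imaginal discs of the larva, which evert at pupation and form scales and pigment in the pupa. The Hox gene Ultrabithorax is the classical selector of hindwing identity in insects, and is transcribed in the hindwing and not in the forewing. Hox loci are known for long regulatory regions made up of many separate elements. The sources used here place no gene on contig 000025F, so its intervals are given by position alone and are assigned to no gene.

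Whole wing tissue from animals raised at about 27 °C was assayed by ATAC-seq, in which the transposase Tn5 cuts open chromatin and tags the ends, and an interval with more reads is taken as more open. Left and right forewings and hindwings were taken at 4 labelled stages, with 3 libraries for each wing and stage, 24 in all. The 8 groups are the forewing and the hindwing of the 5th instar (the last larval instar), of the prepupa, of the pupa at 72 h and of the pupa at 6 d. The titles of the 6 d libraries say day 7. The labels name no strain, sex or treatment, and do not say whether the 3 libraries of a group are separate animals. The p-values below therefore cover the spread between libraries, which may be technical. Since whole wings were assayed, more cells with an open interval and a more open interval in each cell cannot be told apart.

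The 12 forewing libraries held 7733254 to 22020858 counts in intervals each, and the 12 hindwing libraries 6977525 to 14795457. The stretch held between 12734 and 31888 counts in each library. Libraries of a group always differed by more than sampling noise, with a chi-square per interval of 1.99 to 6.75 over 24 pairs of libraries. Beyond the 5th instar, stage names of the wings did not line up over the 126344 intervals matched and tested between the tables. Pearson's r of the group profiles, each centred on its wing's mean, was 0.84 between the wings at the 5th instar, 0.24 at prepupa, -0.31 at 72 h and -0.53 at 6 d. It was 0.89 between hindwing 72 h and forewing 6 d, 0.92 between hindwing 6 d and forewing prepupa, and 0.54 between hindwing prepupa and forewing 72 h. These correlations run across intervals of 1 genome that share their libraries and are given as a description. Stages are therefore named as labelled, and the main measure of a wing difference is the mean over the 4 labels of each wing, which does not depend on which labels are set against each other.

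The tables divided the stretch differently. Hindwing intervals had a median width of 223 bp in the stretch, 170 bp on the rest of the contig and 137 bp in the whole hindwing table. Forewing intervals had 151 bp, 146 bp and 122 bp. Hindwing intervals covered 193.7 kb, or 43.0% of the stretch, against 27.8% of the rest of the contig. Forewing intervals covered 147.1 kb, or 32.7%, against 25.6% of the rest of the contig. The gap between the wings was widest from 950001 to 1000000, where hindwing intervals covered 34.0 kb and forewing intervals 21.6 kb.

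Hindwing intervals also spanned several forewing intervals more often than elsewhere. In the stretch 112 of 630 hindwing intervals (17.8%) touched at least 2 forewing intervals, compared with 7.33% in the whole table. In its middle 150 kb, from 950001 to 1100000, the count was 56 of 218 (25.7%). The opposite case, a forewing interval touching at least 2 hindwing intervals, was found for 19 of 677 (2.81%) in the stretch and for 7.24% in the whole table. The bounds of the middle were set after the values were seen, and the remainder of the stretch is called its flanks.

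Hindwing intervals without any overlap in the forewing table numbered 144 of 630 (22.9%), close to the 18.9% of the whole hindwing table. Forewing intervals without overlap in the hindwing table numbered 56 of 677 (8.27%), against 21.8% of the whole forewing table. From 950001 to 1000000 the counts were 29 of 83 hindwing intervals and 1 of 100 forewing intervals. Most of these intervals were weak. The 56 forewing intervals had a median level of 0.279 CPM, the count per 1e+06 counts of the library after scaling, and none passed the filter on low counts. The 144 hindwing intervals had a median of 0.353 CPM, and 23 passed it.

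The strongest interval found in the hindwing table alone was 000025F:974795-975088, at a mean of 2.96 CPM. It had 7.02, 6.01 and 6.41 CPM in the 5th instar libraries, 1.37, 1.59 and 2.04 at prepupa, 0.745, 1.18 and 0.781 at 72 h, and 3.48, 2.52 and 2.42 at 6 d. Its 5th instar libraries lay above all others without overlap. High hindwing values at this label were part of the excess for which the stretch was chosen, so no p-value is given for this interval. The next strongest, 000025F:1091253-1091678, had 4.72, 7.95 and 4.47 CPM at prepupa and between 0.927 and 3.97 CPM in the other 9 hindwing libraries. The strongest forewing counterparts, 000025F:816102-816211 and 000025F:816978-817079, lay in the left flank and reached only 0.641 and 0.587 CPM on average.

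Summed over its intervals, the stretch was higher in the hindwing under 3 of the 4 labels. Forewing sums were 2268 ± 326 CPM (SD, n = 3) at the 5th instar, 1399 ± 25.9 at prepupa, 1317 ± 81.5 at 72 h and 2699.8 ± 72.9 at 6 d. Hindwing sums were 3239.8 ± 524, 2077 ± 310.5, 2596 ± 113 and 1971 ± 60.0 CPM under the same labels. All hindwing libraries stood above all forewing libraries of the same label at the 5th instar, prepupa and 72 h, and below them at 6 d. Each sum depends on how much of the stretch the table's intervals cover. Per covered kb the ratios of hindwing to forewing were 1.08 at the 5th instar, 1.13 at prepupa, 1.497 at 72 h and 0.554 at 6 d.

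**Figure D1:**
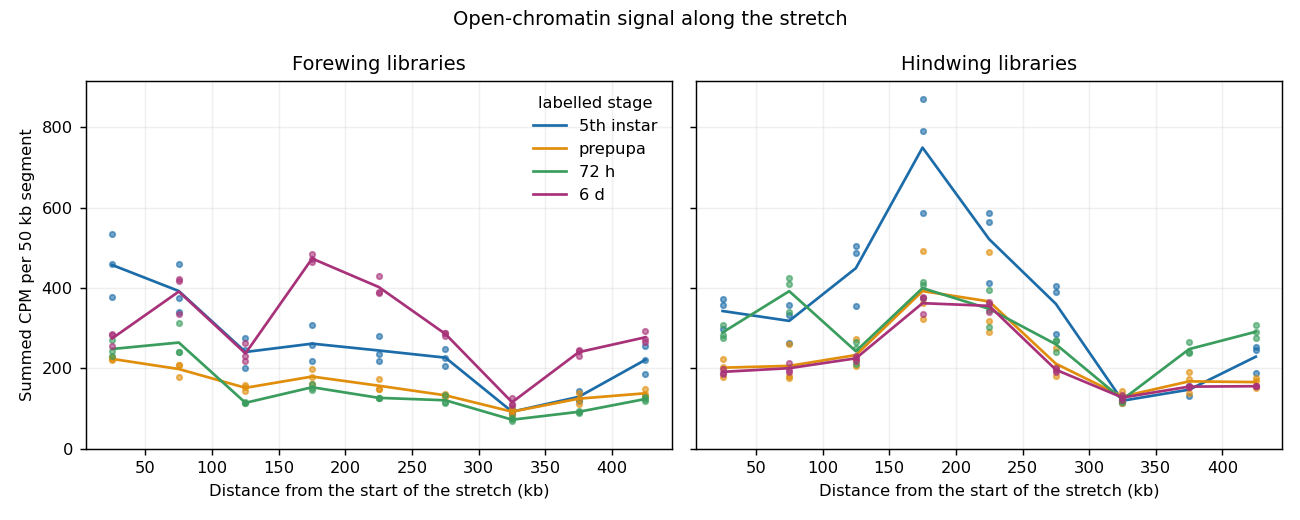
Summed CPM of the intervals in each of 9 segments of 50 kb (vertical axis) against the distance from the start of the stretch in kb (horizontal axis), for forewing libraries on the left and hindwing libraries on the right. Points are libraries, lines join the means of 3 libraries of a labelled stage; hindwing 5th instar libraries peak in the fourth segment at 750 CPM on average, and forewing libraries show a peak there at 6 d, at 474 CPM.

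At 72 h the excess extended over the flanks as well, whereas at the 5th instar and prepupa it was concentrated in the middle. Hindwing 5th instar libraries summed there to 1285, 1849.6 and 1763 CPM, and forewing 5th instar libraries to 643, 718 and 839 CPM. At prepupa the hindwing had 796, 1233 and 885 CPM and the forewing 508, 443 and 459 CPM. At 72 h the hindwing had 920.5, 1030.2 and 1075 CPM and the forewing 394, 421 and 387 CPM. In these 3 labels every hindwing library exceeded every forewing library, with ratios of group means of 2.23, 2.07 and 2.52. At 6 d the order was turned, with 930.3, 942 and 873 CPM in the hindwing and 1161, 1149 and 1177 CPM in the forewing, a ratio of 0.787.

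These ratios are not adjusted for interval width, and hindwing intervals covered 83.2 kb of the middle and forewing intervals 55.8 kb. Why the widths differed was not tested. Per covered kb the ratios were 1.49 at the 5th instar, 1.39 at prepupa, 1.69 at 72 h and 0.528 at 6 d. Scaled to library totals alone, without factors for composition, the ratio of the sums at 6 d was 0.982, while the other 3 were 2.33, 1.95 and 2.57. Of the 16 possible combinations of a hindwing and a forewing group, hindwing libraries were all higher in 12, the libraries overlapped in 2, and forewing libraries were all higher in 2. The latter set forewing 6 d against hindwing 72 h and 6 d, and the overlaps were those of hindwing prepupa with forewing 5th instar and with forewing 6 d.

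At the 5th instar the sums differed most from 950001 to 1000000. Hindwing 5th instar libraries had 586, 872 and 791 CPM there, and forewing 5th instar libraries had 219, 258 and 308 CPM, a ratio of 2.86, or 1.82 per covered kb. In the next 50 kb the 5th instar ratio was 2.13, while the ratios at prepupa and 72 h were at their highest there, at 2.34 and 2.75, and from 1050001 to 1100000 the 5th instar ratio was 1.59. To the left it was 1.87 from 900001 to 950000, where the groups also did not overlap, and 0.750 from 800001 to 850000, where all forewing libraries were higher. To the right it was 1.295 from 1100001 to 1150000, and from 1150001 onwards the 5th instar libraries of the wings overlapped. The 72 h ratio did not decline to the right in the same way, being 2.70 from 1150001 to 1200000 and 2.35 in the last 50 kb.

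Differences free of the split into intervals of unequal number were taken from matched intervals, those with a reciprocal overlap of at least 80% between the tables. The stretch held 152 such pairs, of which 146 passed the filter on low counts. Their mean wing difference, on the log2 scale with positive values for a higher hindwing, had a median of 0.25, and 104 of 146 values were above 0. For all 126344 pairs the median was -0.01, and for the 780 other tested pairs of the contig it was 0.04. The median in the middle was 0.59 over 40 pairs, of which 38 were above 0 and 23 above 0.5. In the flanks it was 0.10 over 106 pairs, of which 8 were above 0.5.

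In segments of 50 kb the medians had a single maximum. They were -0.11 and -0.05 in the first 2 segments, 0.34 in the third and 0.80 from 950001 to 1000000, where all 9 pairs lay between 0.34 and 1.21. From there they were 0.66, 0.43, 0.37, 0.24 and 0.11 towards the right end. All 18 pairs from 950001 to 1050000 were above 0, compared with 10 of 31 in the first 50 kb. In windows of 10 kb, no run of 3 or more windows with a median above 0.5 over at least 3 pairs was found, so no core with fixed bounds was delimited.

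**Figure D2:**
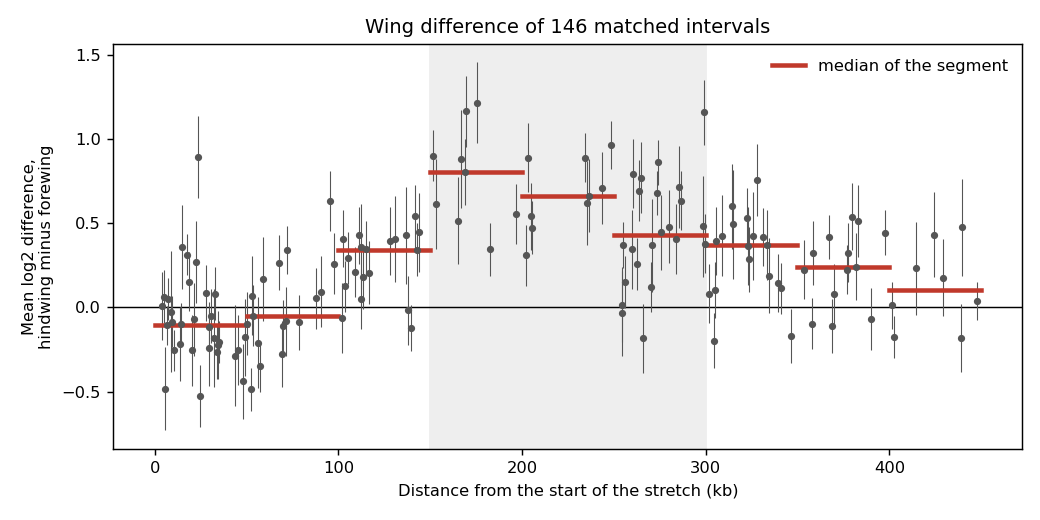
Mean log2 difference between hindwing and forewing over the 4 labelled stages (vertical axis) for 146 matched intervals against the distance from the start of the stretch in kb (horizontal axis), with standard errors as bars. Red lines are medians of 50 kb segments, grey marks the middle 150 kb; medians run from -0.11 at the left end to 0.80 in the fourth segment and 0.11 at the right end.

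Of the 146 pairs, 7 passed an adjusted p of 0.05 for the mean difference with the hindwing higher, all in the middle. The same rule called 11 of all 126344 pairs in that direction (0.00871%). Since the stretch was chosen on this contrast, nothing is read from the count, which also depended on the fit. With an offset for unequal widths of the matched intervals it was 1 (0.000791% of all pairs). With a replicate block that pairs same-numbered libraries of the wings in the most similar groups it was 25 (0.672% of all pairs), at a median difference of 0.25. The size of the wing difference varied over the labels for 71 of the 146 pairs (48.6%, against 53.0% of all pairs), a share that carries the mismatch of stage names described above.

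Under single labels, the median difference in the middle was above 0 at each label but uneven. Its medians were 0.80 at the 5th instar, 0.35 at prepupa, 0.82 at 72 h and 0.17 at 6 d, and those of the flanks were 0.01, 0.05, 0.34 and 0.21. From 950001 to 1000000, where the mean difference was largest, the 9 pairs had medians of 1.84 at the 5th instar and 0.65 at prepupa, but -1.22 at 6 d. At 6 d 24 of the 40 pairs of the middle were above 0, compared with 37 at the 5th instar. These contrasts also entered the choice of the stretch, and the last 3 carry the mismatch of stage names.

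Set against the most similar profile of the other wing, the middle did not always favour the hindwing. Hindwing prepupa against forewing 72 h gave a median of 1.16, with 37 of 40 pairs above 0. Hindwing 6 d against forewing prepupa gave 0.51, with 37 of 40 pairs above 0. Hindwing 72 h against forewing 6 d gave -0.27, with 9 of 40 pairs above 0.

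Over all 16 combinations, medians of the middle were above 0 in 14 and highest against forewing 72 h, where they lay between 0.82 and 1.19. The 2 negative values both involved hindwing 72 h, set against forewing 6 d and against forewing prepupa (-0.11). The flanks ranged from -0.15 to 0.60 and were also highest against forewing 72 h. The combinations share libraries, so these values are not independent of each other.

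**Figure D3:**
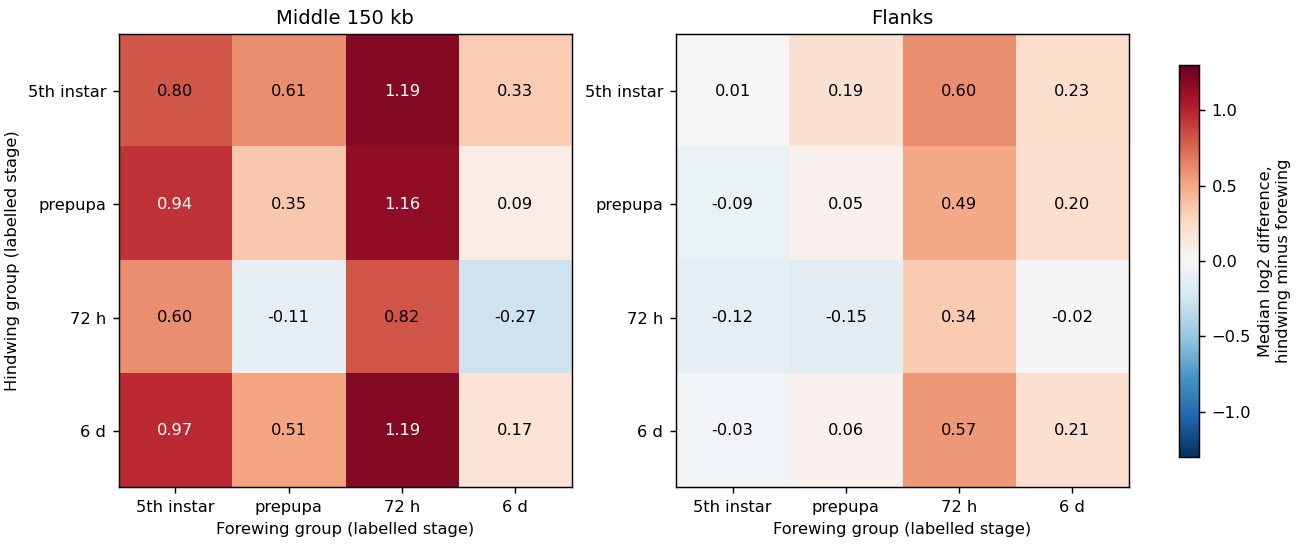
Median log2 difference between a hindwing group (rows) and a forewing group (columns) over 40 matched intervals of the middle 150 kb on the left and 106 of the flanks on the right, with the value printed in each cell and red for a higher hindwing. In the middle the column of forewing 72 h is the reddest, at 0.82 to 1.19, and the cell of hindwing 72 h and forewing 6 d is the lowest, at -0.27.

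Individual intervals were named by a rule on size: the 8 pairs with the largest mean difference towards the hindwing and the 4 towards the forewing, among pairs with at least 5 CPM in 1 group. The hindwing interval was the wider of the pair in all 8, and the forewing interval in all 4. The CPM below are not adjusted for these widths. All 8 lay in the middle. The largest was at 000025F:975305-975639 (forewing coordinates), with a mean difference of 1.21 (SE 0.24). Its 5th instar values were 14.2, 15.7 and 17.5 CPM in the hindwing and 0.918, 1.42 and 1.19 CPM in the forewing. The groups were furthest apart at this label. Prepupal values were 1.82, 2.56 and 3.42 CPM in the hindwing and 1.76, 1.53 and 0.987 CPM in the forewing, without overlap. At 72 h they were 2.66, 5.64 and 1.82 CPM and 0.921, 0.459 and 1.58 CPM, again without overlap. At 6 d the hindwing had 2.11, 1.55 and 3.27 CPM and the forewing 3.81, 12.2 and 3.16 CPM, so that the groups overlapped and 1 forewing library stood above the rest. Without that forewing library the mean difference was 1.43, and with the offset for widths it was 0.94.

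The pair at 000025F:969181-969397, with a mean difference of 1.16 (SE 0.21), had its hindwing maximum at the same label. Its hindwing libraries had 3.71, 8.20 and 8.08 CPM at the 5th instar, 3.24, 3.71 and 3.02 at prepupa, 1.60, 1.97 and 2.08 at 72 h and 2.53, 2.32 and 1.21 at 6 d. Its forewing libraries had 0.656, 1.10 and 1.45 CPM at the 5th instar, 1.06, 1.08 and 0.548 at prepupa, 1.41, 0.525 and 1.23 at 72 h and 1.61, 3.35 and 4.62 at 6 d. The wings did not overlap at the first 3 labels and overlapped at 6 d.

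The pair at 000025F:1048124-1048893, with a mean difference of 0.96 (SE 0.15), had hindwing group means between 8.49 and 12.5 CPM at all 4 labels. Its hindwing libraries had 6.89, 10.9 and 7.72 CPM at the 5th instar, 7.11, 10.8 and 9.33 at prepupa, 6.92, 9.19 and 10.1 at 72 h and 10.9, 12.1 and 14.7 at 6 d. Its forewing libraries had 3.67, 2.74 and 3.83 CPM at the 5th instar, 6.42, 5.32 and 6.36 at prepupa, 2.71, 1.44 and 3.91 at 72 h and 10.5, 12.3 and 8.75 at 6 d. The wings overlapped only at 6 d, where the forewing was at its highest.

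The pair at 000025F:1033581-1034655 (0.89, SE 0.15) held the highest hindwing levels among the 8. Its hindwing libraries had 15.5, 19.4 and 16.2 CPM at the 5th instar, 13.0, 14.1 and 13.2 at prepupa, 8.41, 11.2 and 19.3 at 72 h and 15.3, 13.7 and 12.1 at 6 d. Its forewing libraries had 6.42, 5.81 and 8.59 CPM at the 5th instar, 7.30, 8.84 and 8.01 at prepupa, 4.85, 3.81 and 4.04 at 72 h and 9.57, 11.7 and 22.5 at 6 d. Again the wings overlapped at 6 d alone.

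The pair at 000025F:1073848-1074294 (0.86, SE 0.13) changed order between the late labels. Its hindwing libraries had 14.3, 14.3 and 17.1 CPM at the 5th instar, 7.51, 6.80 and 7.63 at prepupa, 13.0, 16.02 and 15.6 at 72 h and 6.11, 6.29 and 4.97 at 6 d. Its forewing libraries had 6.95, 8.44 and 11.9 CPM at the 5th instar, 1.93, 2.98 and 3.95 at prepupa, 1.21, 2.17 and 2.19 at 72 h and 20.1, 15.4 and 18.5 at 6 d. The hindwing was higher without overlap at the first 3 labels and the forewing at 6 d, and the forewing 6 d values lay in part above the hindwing 72 h values. With the offset for widths the mean difference was 0.56.

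The other 3 of the 8 had mean differences of 1.16 at 000025F:1099119-1099434, 0.90 at 000025F:951110-951782 and 0.88 at 000025F:966729-967146. The first had group means of 3.78 to 5.78 CPM in the hindwing and 1.39 to 4.01 CPM in the forewing. The second had 12.8 ± 2.46 CPM (SD, n = 3) in the hindwing and 3.33 ± 1.19 CPM in the forewing at the 5th instar. The third had 1.19, 1.96 and 1.66 CPM in the hindwing and 0.393, 0.438 and 0.264 CPM in the forewing at the 5th instar, without overlap. It also had 12.2 CPM in 1 hindwing library at 72 h and 17.7 CPM in 1 forewing library at 6 d, without which its mean difference was 0.57 and 1.13.

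**Figure D4:**
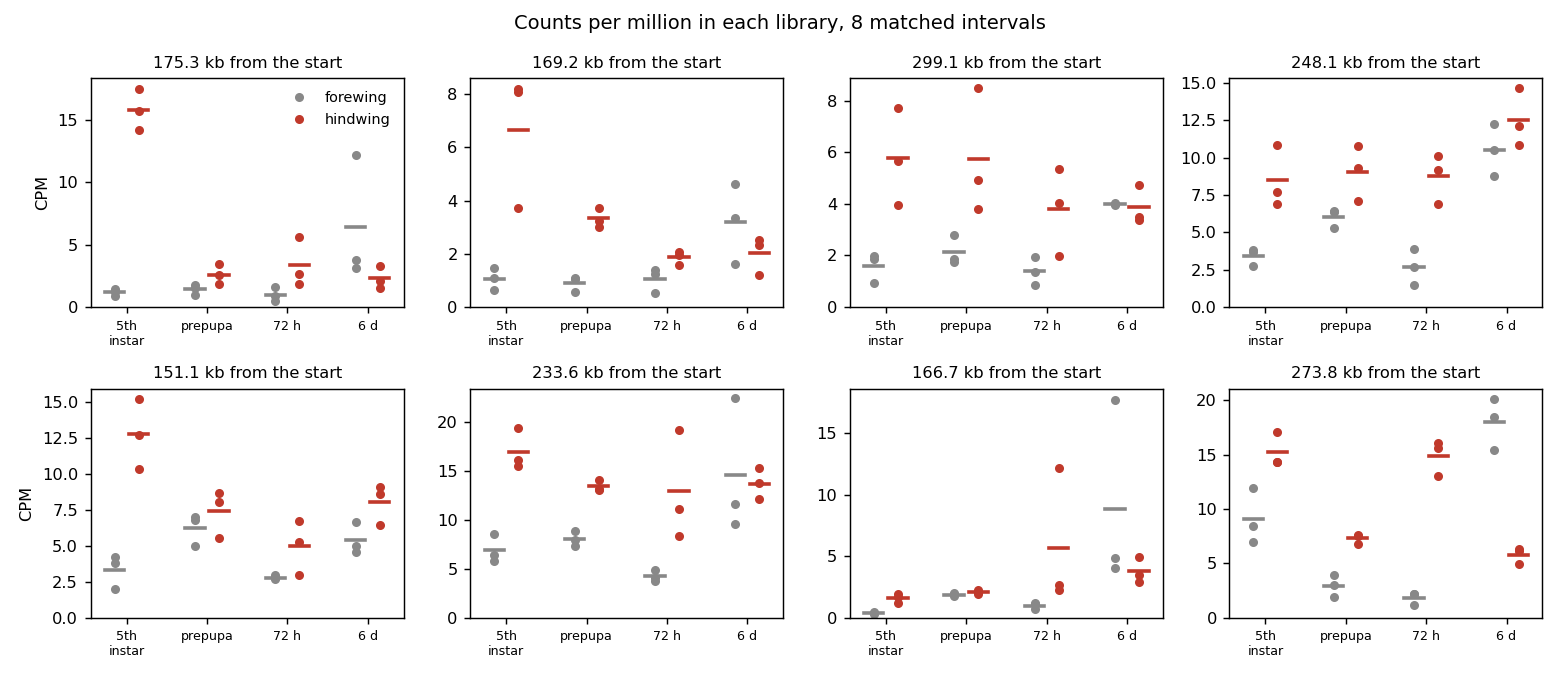
CPM of each library (vertical axes, each from 0) by labelled stage (horizontal axes) for the 8 matched intervals with the largest mean difference towards the hindwing, named by their distance from the start of the stretch. Points are libraries, horizontal lines group means, grey the forewing and red the hindwing; forewing means are highest at 6 d in 7 of the 8, the exception being the one nearest the start of the stretch.

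The 4 pairs with the largest difference towards the forewing all lay in the left flank, between 824324 and 869350. Their mean differences were smaller, at -0.53, -0.49, -0.35 and -0.28. The strongest of them in level was 000025F:856256-857847, with 87.1, 121 and 154 CPM in the forewing and 55.6, 101 and 96.9 CPM in the hindwing at the 5th instar. There the wings overlapped, and at 6 d they did not, with 193, 177 and 119 CPM in the forewing and 35.8, 41.0 and 35.0 CPM in the hindwing. At 72 h the hindwing was the higher, with 190.0, 171 and 128 CPM against 82.6, 112 and 82.4 CPM. The pair at 000025F:852120-852796 had 26.9, 29.0 and 24.2 CPM in the forewing and 10.5, 15.01 and 13.5 CPM in the hindwing at the 5th instar, without overlap.

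At the bounds of the stretch, values inside and outside were as follows. The first pair inside, 000025F:802630-802652, had at most 0.458 CPM in any group mean and was not tested, and the last pair outside on the left, 000025F:798346-798554, had a mean difference of -0.26 (SE 0.24). The last pair inside on the right, 000025F:1247452-1248019, had 0.04 (SE 0.11), and the first pair beyond it, 000025F:1253102-1253978, had 0.46 (SE 0.15).

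Changes between stages were not a criterion for the stretch, but they rest on the same libraries as the wing differences that led to its choice. A low forewing at 72 h, for one, enters both the wing difference at that label and the change to 6 d, so the counts below are not independent of the choice. In the forewing, 199 of its 383 tested intervals (52.0%) passed the joint test over the 4 labelled stages, close to the 52.9% of all tested forewing intervals. In the hindwing 148 of 435 (34.0%) passed, against 39.1%. The share in the middle was 97 of 156 (62.2%) in the forewing and 64 of 160 in the hindwing. As a whole, then, intervals of the stretch were called as changing between stages about as often as other intervals of the same wing.

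The direction of the forewing changes was uneven at the last step. From 72 h to 6 d, 134 of 383 forewing intervals rose (35.0%, against 14.5% of all forewing intervals) and 13 fell (3.39%, against 13.1%). The 13 became 7 without replicate 2 of 72 h and 8 without replicate 1 of 6 d, whereas at least 105 rose without any single library. On the rest of the contig 18.9% rose and 9.50% fell. In the middle 79 of 156 rose and 1 fell, and the tested intervals changed by 1.12 on the log2 scale in the median. In the flanks 55 of 227 rose and 12 fell, with a median of 0.48. With library totals alone, which shifted the median of all intervals by -0.17 (log2), 112 rose and 18 fell (29.2% and 4.70%, against 11.3% and 16.7% of all). Of the 97 middle intervals that passed the joint test, 70 had their highest group mean at 6 d, a share of 72.2% against 30.8% of all forewing intervals called.

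The first 2 forewing steps gave 99 and 68 calls in the stretch, against 147 at the last step. With library totals alone the order was turned, with 140 and 175 calls against 130. From the 5th instar to prepupa 26 rose (background 11.3%) and 73 fell (background 20.2%), which with library totals alone became 86 rising and 54 falling. These are 22.5% and 14.1%, against 25.4% and 13.9% of all forewing intervals, so that the prevailing direction depended on the scaling over the whole table. From prepupa to 72 h 25 rose (background 18.0%) and 43 fell (background 6.98%), or 16 and 159 with library totals alone (4.18% and 41.5%, against 13.2% and 20.9% of all). Without replicate 2 of the forewing 72 h libraries the calls of that step numbered 35 in both directions. Single libraries moved these counts: the 26 rises became 12 without replicate 2 of the 5th instar and 15 without replicate 1 or 2 of the prepupa, and the 43 falls became 20 to 26 without replicate 1 or 2 of the prepupa or of 72 h. Of the 73 falls of the first step, 52 lay in the flanks. These are 22.9% of the 227 intervals tested there, near the background of 20.2%. In the middle 21 of 156 fell (13.5%).

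**Figure D5:**
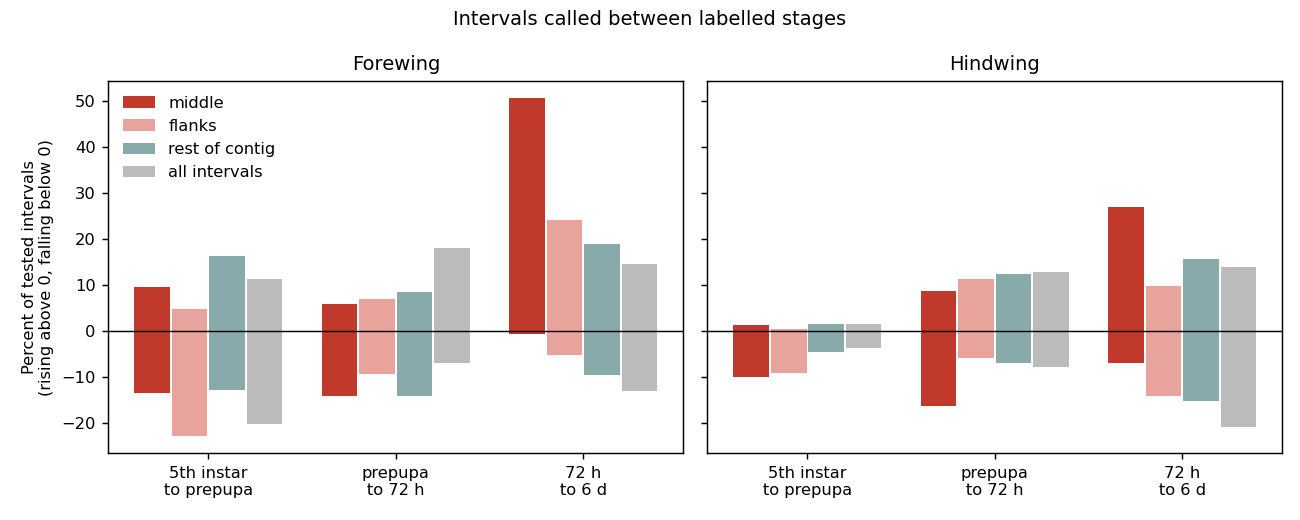
Percent of tested intervals called as rising (above 0) or falling (below 0) between labelled stages (vertical axis) at each of 3 steps (horizontal axis), in the forewing on the left and the hindwing on the right. Bars are the middle 150 kb, the flanks, the rest of the contig and all intervals; at the forewing step from 72 h to 6 d 50.6% of the middle rose and 0.641% fell.

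In the hindwing, falls led at the first step. From the 5th instar to prepupa 41 of 435 intervals fell (background 3.77%) and 3 rose (background 1.47%). Of the 64 middle intervals that passed the joint test, 31 had their highest group mean at the 5th instar, a share of 48.4% against 22.6% of all hindwing intervals called. The number of calls at this step depended on the prepupal libraries, with 21 calls without replicate 1 and 71 without replicate 2. The 41 falls became 20 to 26 without replicate 1 or 3 of the prepupa or replicate 2 or 3 of the 5th instar, and the 3 rises 1 to 8 without single libraries.

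From prepupa to 72 h 45 hindwing intervals rose (background 12.9%) and 42 fell (background 7.78%), which with library totals alone became 35 and 149 (8.05% and 34.3%, against 8.26% and 22.4% of all). Without replicate 1 of the 72 h libraries 16 fell, and without replicate 1 or 3 of the prepupa 22. From 72 h to 6 d 70 rose (background 14.0%) and 50 fell (background 20.9%), or 194 and 31 with library totals alone (44.6% and 7.13%, against 30.8% and 13.2% of all), a scaling that moved the median of all hindwing intervals by 0.61. Rises lay in the middle more than in the flanks, with 43 of 160 tested intervals in the middle and 27 of 275 in the flanks. Without replicate 1 of the 72 h libraries 38 rose in the stretch, 21 of them in the middle, and without replicate 2 of 6 d 46 rose. Without replicate 3 of 72 h or replicate 1 of 6 d the middle had 27 and 25 rises.

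The 3 intervals with the lowest joint p of each wing all lay in the flanks. The lowest joint p of the forewing was at 000025F:1197231-1197585, which had 8.39, 7.12 and 10.7 CPM at the 5th instar, 5.98, 5.50 and 5.26 at prepupa, 2.67, 2.49 and 2.06 at 72 h and 63.9, 58.3 and 65.4 at 6 d. It rose by 4.91 on the log2 scale from 72 h to 6 d (SE 0.24, edgeR adjusted p 1.39e-10). The hindwing interval at the same place, 000025F:1197221-1197586, had 7.02, 14.0 and 14.8 CPM at the 5th instar, 4.04, 7.60 and 5.79 at prepupa, 51.9, 59.9 and 67.1 at 72 h and 5.38, 6.97 and 6.06 at 6 d. It rose by 3.58 from prepupa to 72 h (SE 0.36, edgeR adjusted p 5.74e-07) and fell by 3.55 from 72 h to 6 d (SE 0.36, edgeR adjusted p 5.81e-07). Each wing thus had a single group far above its others, labelled 6 d in the forewing and 72 h in the hindwing.

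Further hindwing intervals of the right flank shared this maximum at 72 h. At 000025F:1247456-1248014 the hindwing had 58.0, 65.5 and 59.6 CPM at 72 h and between 6.83 and 23.7 CPM in its other libraries. At 000025F:1168534-1168948 it had 43.4, 47.4 and 38.6 CPM at 72 h and 4.22, 2.71 and 1.33 at 6 d, a fall of 4.23 on the log2 scale (SE 0.45, edgeR adjusted p 9.6e-07).

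Some named intervals of the left end had larval maxima, as did others in the middle. The forewing interval at 000025F:816236-816928 had 43.8, 51.5 and 55.6 CPM at the 5th instar and between 1.84 and 8.004 CPM in the other 9 forewing libraries, and fell by 3.17 from the 5th instar to prepupa (SE 0.27, edgeR adjusted p 4.05e-08). At 000025F:800313-800712 the forewing had 14.3, 19.1 and 29.2 CPM at the 5th instar and 2.81, 2.44 and 1.54 at prepupa, a fall of 3.35 (SE 0.33, edgeR adjusted p 2.99e-07). The hindwing interval at 000025F:829081-829474 had 13.4, 14.8 and 14.6 CPM at the 5th instar and between 1.04 and 3.18 CPM in the other 9 hindwing libraries. It fell by 2.54 at the first step (SE 0.29, edgeR adjusted p 5.28e-05).

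In and next to the middle, the named forewing intervals had their maxima at 6 d or prepupa. They were picked by a low joint p or as the largest rise or fall of a step, so these labels follow in part from the choice. At 000025F:967194-967959 the forewing had 1.97, 2.52 and 1.98 CPM at the 5th instar, 6.51, 5.50 and 4.50 at prepupa, 3.01, 1.58 and 1.44 at 72 h and 24.7, 21.6 and 27.3 at 6 d. It fell by 1.37 from prepupa to 72 h (SE 0.29, edgeR adjusted p 0.00143) before its rise by 3.79 (SE 0.29, edgeR adjusted p 1.43e-08). At 000025F:947510-947881, just left of the middle, the forewing had 19.6, 26.2 and 18.1 CPM at 6 d and between 1.51 and 3.07 CPM in the other 9 libraries. At 000025F:1065308-1065981 its prepupal libraries, at 4.66, 5.05 and 5.37 CPM, stood above the other 9 forewing libraries, which reached 3.35 CPM at most.

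The named hindwing intervals of the middle were picked as the largest rises and falls of different steps. That their maxima lie at different labels therefore follows in part from the choice. The hindwing interval at 000025F:975254-975658, from the pair with the largest wing difference, fell by 2.70 from the 5th instar to prepupa (SE 0.38). Its high 5th instar values also enter that wing difference, so no p-value is given for the fall. The widest named interval, 000025F:955616-958037 with 2422 bp, had 29.0, 46.0 and 37.7 CPM at the 5th instar, 35.2, 61.0 and 30.8 at prepupa, 9.90, 11.7 and 8.59 at 72 h and 24.98, 27.1 and 22.8 at 6 d. Its 72 h libraries lay below all others, and it fell by 1.87 from prepupa to 72 h (SE 0.33, edgeR adjusted p 0.000399). At 000025F:978440-978896 the hindwing had 6.64, 4.65 and 4.60 CPM at 6 d and between 0.788 and 3.004 CPM in the other 9 libraries, a rise of 1.98 from 72 h (SE 0.39, edgeR adjusted p 0.00061). The interval at 000025F:1091253-1091678, absent from the forewing table, rose by 1.87 from the 5th instar to prepupa (SE 0.37, edgeR adjusted p 0.00461) and fell by 1.83 at the next step (SE 0.38, edgeR adjusted p 0.00154).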

How the data were processed

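Values are read counts per interval, not normalized, which the authors deposited as 1 table per wing, each with its own intervals. Bowtie2 and deepTools are named in the submitters' processing notes, without versions. Not given in the sources used here are the genome build, peak caller, read filters, duplicate handling, any shift for the transposase and the pooling of libraries for peaks. Duplicates, if kept, would make the counts less precise than they appear, and intervals wider in one table collect more reads. Starts were converted to positions counted from 1.

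Stage changes were tested in each wing's own table, and wing differences over all 24 libraries in matched intervals (mutual best partners sharing 80% or more of both, 136423 in all). Both used the quasi-likelihood F test of edgeR (version 4.0.16, run in R 4.3.3 with limma 3.58.1, and tables read with data.table at version 1.17.8). TMM factors scaled library totals, filterByExpr set the filter (minimum count 10, minimum total 15), and Benjamini-Hochberg adjustment ran over all tested intervals, with calls at an adjusted p under 0.05. Percentages given as background are the share of all tested intervals called by the same rule. All CPM in the text use TMM factors of the matched fit (0.828 to 1.17 in the forewing, 0.882 to 1.19 in the hindwing). The scripts were tested on simulated data. DESeq2 1.42.0 was run as an alternative.

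Libraries were grouped by labelled tissue and stage. Replicate numbers did not pair libraries within a wing, where forewing libraries of the same number had correlated deviations from group means of -0.066 to 0.056, and hindwing libraries of -0.077 to 0.146. Between the wings they paired libraries (all 3 correlations over 0.1, at 0.201 to 0.488) in the 4 combinations of most similar profile, of which the 5th instar alone has matching stage names, and in none of the other 12 (-0.102 to 0.113). A replicate block over these 4 combinations was therefore fitted for the mean wing difference. The stretch, the named-interval rule and the lists were chosen with earlier results of these data known. Named were the 8 and 4 pairs with the largest wing differences, per wing the 3 lowest joint p-values and the largest rise and fall of each step, the 2 strongest intervals without overlap, and the pairs at the ends. Interval sequences were not analysed here.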

Additional observations from a re-analysis of the deposited data

Results flagged for a closer look

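Sums of CPM moved in opposite directions in the wings in 7 cases, of which 6 were steps of 50 kb segments and 1 was a step of the whole stretch that contains them, with every library of the later stage on one side of every library of the earlier stage in each wing. The difference between the wings was not tested in any of them, and the stage names of the wings did not line up. With library totals alone, 4 of the 7 kept libraries without overlap in opposite directions. In the other 3 the hindwing libraries overlapped, with hindwing ratios of 0.959 for the whole stretch and 0.955 from 1050001 to 1100000 at the last step, and 1.22 from 1150001 to 1200000 from prepupa to 72 h. Sums weigh strong intervals most. With TMM factors, the median log2 change of the tested intervals had the same sign in both wings in all 7 cases. Over the stretch it was 0.69 in the forewing and 0.43 in the hindwing from 72 h to 6 d. At that step 70 hindwing intervals rose and 50 fell. In the last 50 kb it was -0.70 and -0.50 from prepupa to 72 h.

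From 72 h to 6 d the sum over the stretch was 0.759 times its former level in the hindwing and 2.05 times in the forewing. The same step gave 0.511 and 1.48 times from 850001 to 900000, 0.756 and 2.37 times from 1050001 to 1100000, 0.624 and 2.61 times from 1150001 to 1200000, and 0.535 and 2.24 times from 1200001 to 1250000, with the hindwing value first. From prepupa to 72 h the opposite order was found at the right end. There the hindwing sum was 1.48 times its former level and the forewing sum 0.737 times from 1150001 to 1200000, and 1.75 and 0.897 times from 1200001 to 1250000.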

How the results depend on the processing

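The median wing difference of the stretch (0.25) was above 0 in every alternative, but at 95% overlap it was 0.00154 over 30 pairs. It was 0.346 with library totals, 0.222 without a filter, 0.206 with at least 50 counts in 3 libraries, 0.165 with the width offset, 0.277 without prepupal libraries, 0.380 at 50% overlap and 0.478 over loci merged from overlapping intervals. The median of the middle was 0.398 over 5 pairs at 95% overlap and 0.837 over merged loci. Hindwing calls numbered 1 with the width offset, 18 without prepupal libraries (1.09% of all pairs), 78 of 289 at 50% overlap (3.23% of all pairs), 0 at 95% overlap and 168 of 421 merged loci (4.96% of all loci). Interaction calls numbered 47 of 64 with at least 50 counts, 109 of 289 at 50% overlap, 22 of 30 at 95% overlap and 137 of 421 merged loci. Shares of all pairs under these settings are not given here, so nothing about the stretch is read from these interaction counts. In the main fit its share, 48.6%, was below the 53.0% of all pairs. The numbers tested differ, so these counts are not compared with each other. Merged loci, matched-interval totals, the block over similar groups, stage tests without prepupal libraries, and the interaction with other overlaps, at least 50 counts, the width offset or no prepupal libraries were chosen after seeing the data. With at least 50 counts, fewer forewing intervals were tested (95), and the joint test, first step and last step gave 93, 64 and 66 calls. Over all forewing intervals that passed this filter the shares called were 86.3%, 58.6% and 54.7%. Library totals gave 175 calls of 383 for the second forewing step (34.1% of all forewing intervals). For the hindwing joint test and last 2 steps they gave 246, 184 and 225 of 435 (49.1%, 30.6% and 44.0% of all hindwing intervals). The longest run of windows was 1 window (10 kb) in the report, 3 windows (15 kb, 1060001 to 1075000) with 5 kb windows, which meets the rule for a core, and 100 kb with 20 kb windows, 40 kb with a bound of 0.3 or with library totals, and 0 kb with a bound of 1. Other causes of these shifts were not tested.

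Leaving out 1 library at a time, the medians were 0.211 to 0.270 in the stretch and 0.538 to 0.635 in the middle, with 5 to 10 hindwing calls and 62 to 74 interaction calls. Forewing counts were 183 to 198 (joint), 72 to 106, 35 to 75 and 112 to 148 for the steps, and hindwing counts 118 to 169, 21 to 71, 56 to 93 and 87 to 129.

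A library correlated best with its own number in 24 of 72 same-wing and 48 of 96 other-wing comparisons. In each comparison the same-numbered library stood among the 3 libraries of the other group. With the replicate block over similar groups, the medians were 0.254 and 0.572, with 25 hindwing calls. With the number alone as a replicate block over all libraries, the medians were 0.24 and 0.59, with 8 hindwing calls, 71 interaction calls, and 188, 91, 61 and 138 forewing and 136, 45, 82 and 119 hindwing calls. Weak intervals limit the precision, and only 95 forewing intervals of the stretch had 50 counts in 3 libraries.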
